A study of Mus musculus with 4 samples.

Results

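Insulin-like growth factors and their binding proteins were followed in gastrocnemius muscle through 8 of the 18193 genes on the array with a probe set of their own: the ligands Igf1 and Igf2 and the binding proteins Igfbp2, Igfbp3, Igfbp4, Igfbp5, Igfbp6 and Igfbp7. A gene entered through every probe set that the platform annotation assigns to it and to no other gene, which gave 21 of the 45037 probe sets on the array. Of these, 20 reached the array median on at least 1 array, and all 8 genes kept at least 1 probe set. Where a gene is given by a single value, it comes from the gene's brightest such probe set, by mean over the arrays.

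Gene expression had been compared between control and FoxO1,3,4-deficient muscle, fed or starved, to ask which starvation responses need FoxO transcription factors in muscle. Control mice carried floxed Foxo1, Foxo3 and Foxo4 alleles according to the design text (FoxO1,3,4 f/f), while the sample labels call them wild type. Knockout mice (FoxO1,3,4-/-) carried the same floxed alleles plus a Cre transgene under the MLC1f promoter. All mice were males from a cross of C57BL/6N and FVBN, young adults by the study's methods, with no age in the labels. Starved mice were without food for 24 h with water always present, and fed mice had free access to food and water. Each condition was a pool of RNA from 6 muscles of 3 mice on 1 array, so the 4 arrays hold no replicates, no test between conditions is possible, and no SD is given. By the study's account this promoter drives Cre in fast fibres only, so slow fibres and the non-muscle cells of the knockout pools keep their FoxO genes. In whole muscle, fewer cells of a type and less RNA per cell cannot be told apart.

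Values are MAS 5.0 signal intensities in linear units, comparable across arrays within a probe set but not between probe sets or genes. A gene was called changed at a ratio of 1.5-fold, the threshold used in the study, and "rose" and "fell" are kept for such changes. The median signal over all probe sets was 26.3 and 26.0 on the fed and starved control arrays against 23.8 and 22.9 on the knockout arrays, and the median log2 ratio of knockout over control over 12565 genes was -0.20 in fed and -0.16 in starved muscle. Under quantile normalization the called genes in the starved genotype comparison turned from 801 higher and 1828 lower to 1279 higher and 1039 lower, and in the fed one from 424 and 1414 to 637 and 797. In the fed and starved pools Foxo4 was 9.49-fold and 8.49-fold lower in the knockout, and Foxo1 1.64-fold and 3.35-fold lower. Foxo3 was not (250.1, 477.8, 297.3 and 460.9 on the fed control, starved control, fed knockout and starved knockout arrays), and whether its probe sets lie in the deleted part is not given in the sources used here. Markers of fast fibres were flat across the arrays, with a summed signal between 139880 and 147989. Hair follicle genes stood apart, with 7 of 11 skin and hair genes higher on the fed control and starved knockout arrays than on both others, a pattern that 0 of the 8 IGF genes had.

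IGF1 and IGF2 are small secreted hormones that bind the IGF1 receptor and, through the insulin receptor substrates and Akt, drive protein synthesis and restrain FoxO activity. IGF1 comes from the liver under growth hormone control, and skeletal muscle also makes its own, which acts locally on fibre size and on satellite cells. The binding proteins hold IGFs in blood and matrix, shield or release them, and have actions of their own. IGFBP2 to IGFBP6 bind IGFs tightly, and IGFBP7 binds them only weakly.

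The promoters of Igf1, Igfbp3 and Igfbp5 are shown because these were the genes past the threshold on starvation in both genotypes in the signals as deposited. Each window runs from 250 bases before to 50 bases after a RefSeq start site on GRCm38.p6 and is read 5′ to 3′ on the gene's strand, with CG dinucleotides in capitals. The Igf1 window is chr10:87860861-87861160 on the plus strand, the Igfbp3 window chr11:7213874-7214173 on the minus strand and the Igfbp5 window chr1:72874816-72875115 on the minus strand.
Igf1: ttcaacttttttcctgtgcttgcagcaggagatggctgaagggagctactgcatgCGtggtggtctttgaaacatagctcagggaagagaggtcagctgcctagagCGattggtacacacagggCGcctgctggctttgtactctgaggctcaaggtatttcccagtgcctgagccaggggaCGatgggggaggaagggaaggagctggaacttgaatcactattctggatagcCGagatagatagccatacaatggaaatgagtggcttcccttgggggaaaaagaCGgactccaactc
Igfbp3: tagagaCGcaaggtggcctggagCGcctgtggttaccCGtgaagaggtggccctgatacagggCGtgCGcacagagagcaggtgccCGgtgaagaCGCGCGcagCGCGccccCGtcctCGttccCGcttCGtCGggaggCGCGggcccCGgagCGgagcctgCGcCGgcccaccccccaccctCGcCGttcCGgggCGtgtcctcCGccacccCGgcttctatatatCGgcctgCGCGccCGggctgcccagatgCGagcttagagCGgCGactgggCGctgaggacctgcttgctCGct
Igfbp5: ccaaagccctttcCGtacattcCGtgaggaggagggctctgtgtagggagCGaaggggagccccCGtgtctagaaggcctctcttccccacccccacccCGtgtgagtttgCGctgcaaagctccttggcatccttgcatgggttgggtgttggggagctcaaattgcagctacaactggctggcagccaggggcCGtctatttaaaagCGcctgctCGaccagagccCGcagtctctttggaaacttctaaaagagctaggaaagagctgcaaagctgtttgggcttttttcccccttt

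These promoters differ in base composition. The Igfbp3 window, of the gene that rose, was 71.7% G or C with 37 CG dinucleotides. The windows of the genes that fell held 52.3% and 6 CG dinucleotides for Igf1 and 56.3% and 10 for Igfbp5, against medians of 52.7% and 7 over 32851 promoter windows. The Igfbp7 window (73.3% and 33) and the Igfbp4 window (71.3% and 27) were as rich in G and C as that of Igfbp3, and neither gene rose. GTAAACA, the core of the FoxO consensus, and CAAAACA, a core of insulin response elements, were searched on both strands. They were found in 0 of the 12 windows of the 8 genes, and in 3.65% and 6.28% of all windows. This says only that these letters are not in these 300 bases. Igfbp2 and Igfbp5 are neighbouring coding genes on chromosome 1, and Igfbp3 lies beside Igfbp1 on chromosome 11.

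By their leading probe sets, Igfbp3 rose and Igfbp5 fell on starvation in both genotypes, and Igf1 fell in knockout muscle and, only in the signals as deposited and not under the 3 other array scalings, in control muscle. The other 5 genes stayed within 1.5-fold by these probe sets, although Igfbp7 passed it with the mean over its probe sets, a dim one included, at log2 ratios of -0.87 in control and -1.05 in knockout muscle. In control muscle 1 of the 8 genes rose, where 9.21% of all 12565 genes did, and 2 fell, where 14.2% did. In knockout muscle 1 rose, against 7.36% of all genes, and 2 fell, against 9.45%. The median log2 ratio of the 8 genes was -0.20 in control and -0.18 in knockout muscle, beside -0.11 and -0.06 over all genes. As a yardstick for the size of a log2 ratio, the scatter of a single probe set was derived from the difference between a gene's brightest and next brightest probe sets. Its SD was 0.15 in control and 0.14 in knockout muscle where the dimmer probe set had a mean signal above 442. It was 0.36 and 0.38 between 35.7 and 79.2, where Igfbp2 lies. The difference between the probe sets of a gene itself has a larger SD. This scatter is between probe sets of a pool, not between mice.

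**Figure D1:**
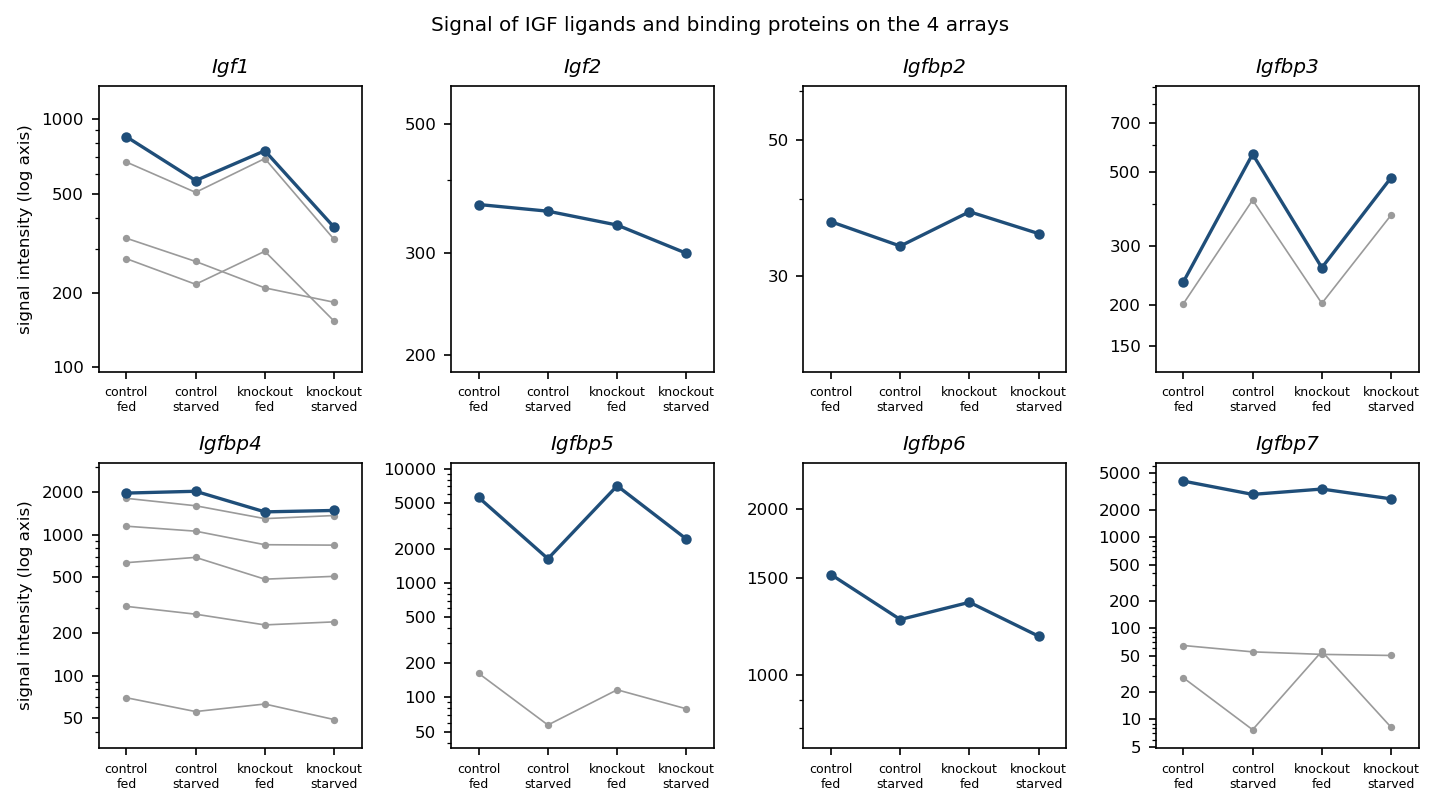
Signal intensity (log axis, each panel with its own range) of the 8 genes on the 4 arrays, with the probe set that stands for the gene in blue and the gene's other probe sets past the filter in grey. Igfbp5 drops from 5601 to 1629 in control and from 7085 to 2422 in knockout muscle, Igfbp3 rises in both, and Igf1 is lowest in starved knockout muscle on all 4 of its probe sets.

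Among the ligands, Igf1 gave the leading probe set (1437401_at) a signal of 847 in fed control, 564 in starved control, 744 in fed knockout and 366 in starved knockout muscle. The starved arrays were the lower ones in each genotype, and the starved knockout array was the lowest. Igf1 thus fell 1.50-fold in control muscle (log2 ratio -0.59), right at the threshold, and 2.03-fold in knockout muscle (-1.02). Under each of 3 other array scalings the fall in control muscle missed the threshold, with log2 ratios from -0.57 to -0.51, while that in knockout muscle stayed past it.

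The other Igf1 probe sets ran the same way on starvation but with different sizes. Probe set 1434413_at read 670.0, 506, 692 and 327 in the order fed control, starved control, fed knockout and starved knockout, a 2.11-fold fall in the knockout. Probe set 1419519_at read 274, 216, 293 and 154. On these the starved knockout array was well below the other 3. Probe set 1452014_a_at read 331, 267, 209 and 183 and so was lower in the knockout already when fed. All 4 probe sets were lower on starvation in both genotypes, also under the 3 other scalings, with 1 of 4 past the threshold in control and 3 of 4 in knockout muscle. The log2 ratios spanned -0.59 to -0.31 in control and -1.08 to -0.19 in knockout muscle. The difference between the genotypes' responses had no replicate check and differed between probe sets, from -0.12 to 0.68 on the log2 scale, control minus knockout.

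Igf2, the ligand that dominates fetal growth and takes part in myoblast differentiation, stayed nearly level. Its probe set 1448152_at read 363 in fed control, 354 in starved control, 335 in fed knockout and 299 in starved knockout muscle, log2 ratios on starvation of -0.04 and -0.16. A further Igf2 probe set, 1415931_at, was dim on every array, with signals of 6.8, 2.7, 9.7 and 9.4, and did not reach the array median. Igf2 was thus past the threshold in neither genotype under any scaling run.

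Igfbp5, which binds to extracellular matrix and is made by muscle cells and fibroblasts, had the widest range of the 6 binding proteins. Its leading probe set (1452114_s_at) read 5601 in fed control, 1629 in starved control, 7085 in fed knockout and 2422 in starved knockout muscle. The fed arrays lay far above the starved ones in each genotype. Igfbp5 fell 3.44-fold in controls and 2.92-fold in the knockout, log2 ratios of -1.78 and -1.55. The dimmer probe set 1422313_a_at read 161.6, 57.1, 116 and 79.1, a 2.83-fold fall in control but a 1.47-fold lower signal in knockout muscle, just short of the threshold. Its neighbour Igfbp2, which also binds IGFs and can engage integrins, read 36.8, 33.6, 38.2 and 35.2 on probe set 1454159_a_at. These values differ by less than the scatter between probe sets at that brightness. No shift like that of Igfbp5 was seen in the adjacent gene. Its only probe set lay not far above the array medians of 22.9 to 26.3, where a fall may not show.

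Igfbp3, the main IGF carrier of the blood, went the other way. Probe set 1423062_at read 234 in fed control, 565 in starved control, 258 in fed knockout and 480.1 in starved knockout muscle. Probe set 1458268_s_at read 201, 411, 202 and 371. On both probe sets each starved array was above each fed array. Igfbp3 rose 2.42-fold and 2.04-fold in control muscle and 1.86-fold and 1.84-fold in knockout muscle on these probe sets. The ratio of the control response over the knockout response was 0.38 and 0.15 on the log2 scale, within 1.5-fold.

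**Figure D2:**
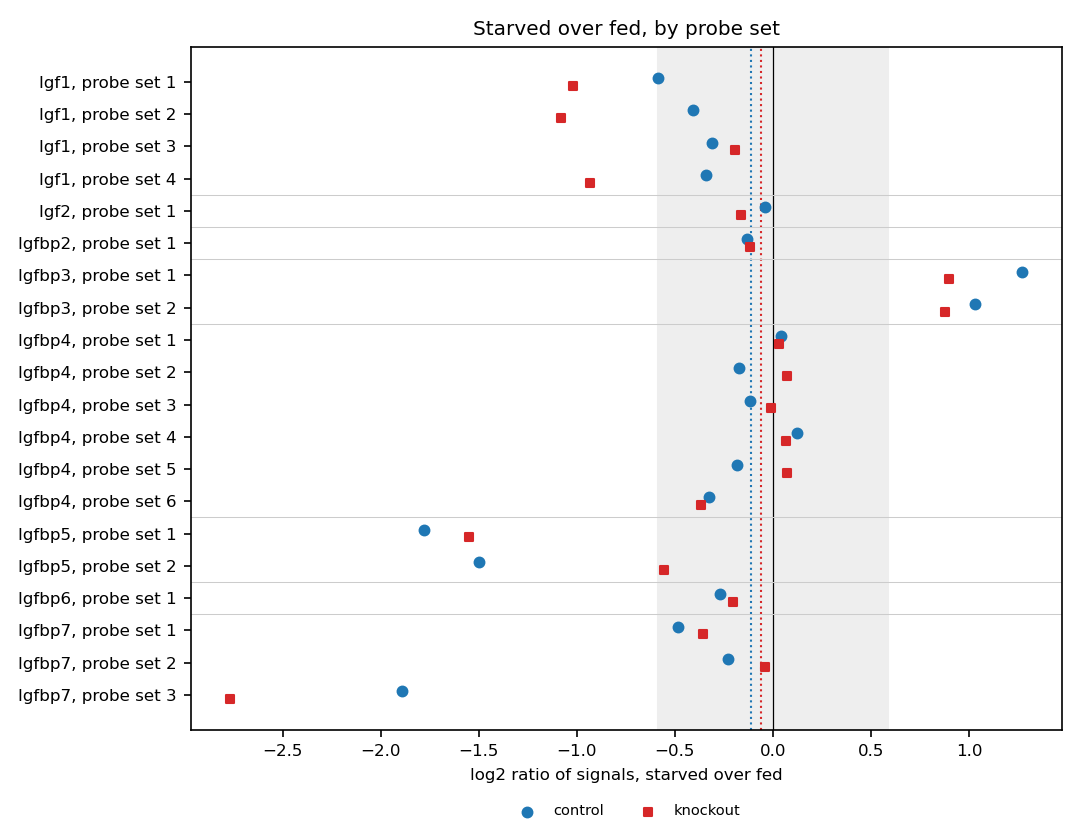
Log2 ratio of signals, starved over fed, for the 20 probe sets past the filter (numbered within a gene by mean signal), in control (circles) and knockout muscle (squares), with 1.5-fold in grey and the median of all genes dotted. Both Igfbp3 probe sets lie to the right at 0.88 to 1.27, and all 4 Igf1 and both Igfbp5 probe sets lie to the left.

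The remaining binding proteins stayed within 1.5-fold on starvation by their leading probe sets. Igfbp4, which mostly holds IGFs back until the protease PAPP-A cuts it, read 1974, 2033, 1452 and 1486 on probe set 1437405_a_at in the order fed control, starved control, fed knockout and starved knockout. Its 6 probe sets gave log2 ratios from -0.33 to 0.12 in control and from -0.37 to 0.07 in knockout muscle, with no common direction. Igfbp6, which prefers IGF2, read 1521, 1259.9, 1354 and 1175 on probe set 1417933_at, log2 ratios of -0.27 and -0.21.

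Igfbp7, a matrix protein of vessels and stroma, read 4125, 2948, 3374 and 2634 on probe set 1423584_at, log2 ratios of -0.48 and -0.36. Its 3 probe sets were all lower on starvation in control muscle, and in knockout muscle 3 of 3 were lower as deposited and 2 of 3 under the other scalings. Only the dimmest of them, 1437804_at, which reached the array median on 2 arrays, passed 1.5-fold, with signals of 28.6, 7.7, 55.8 and 8.2. At such signals the scatter between probe sets of a gene reached an SD of 0.74 on the log2 scale.

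In fed muscle 0 of the 8 genes were past 1.5-fold higher, where 3.37% of all genes were, and 0 lower, where 11.3% were, counts that lie near these shares. The median log2 ratio of knockout over control was -0.14 for the 8 genes beside -0.20 for all genes. Igfbp4 had the lowest value, with log2 ratios between -0.48 and -0.15 on its 6 probe sets, all below 0, and 5 or 6 of the 6 stayed below 0 under the other scalings. For the leading probe set it was -0.44, and -0.30 to -0.25 after the 3 other scalings. Igfbp5 had the highest at 0.34 on the leading probe set, but its dimmer probe set gave -0.48. For Igf1 the 4 probe sets ran from -0.66 to 0.10. The dim Igfbp7 probe set 1437804_at, at 28.6 in the control and 55.8 in the knockout, was 1.95-fold higher. Igf1, Igf2 and Igfbp6, at -0.19, -0.12 and -0.17, lay close to the median of all genes and came out at or just above 0 under 2 or more of the other scalings.

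In starved muscle 0 of the 8 genes were past 1.5-fold higher in the knockout, where 6.37% of all genes were, and 1 lower, where 14.5% were. The gene past the threshold was Igf1, at 366 in starved knockout against 564 in starved control muscle, 1.54-fold lower. The 4 Igf1 probe sets gave log2 ratios from -0.63 to -0.49, all lower and 2 of them past the threshold. Against the median of all genes the leading probe set was lower by a log2 difference of -0.46. After the 3 other scalings its ratio was -0.45 to -0.44, short of 1.5-fold but in the same direction.

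Igfbp5 was the gene on the other side in starved muscle, at 2422 in the knockout against 1629 in the control. Its ratio of 1.49-fold (log2 ratio 0.57) was just short of the threshold, and the dimmer probe set gave 0.47. After the 3 other scalings the log2 ratio was 0.72 to 0.76, past 1.5-fold. Igf1 and Igfbp5 were thus lower and higher in the starved knockout under every scaling run, and which of them passed the threshold depended on the scaling. Igfbp4 was again lower on all 6 probe sets, from -0.45 to -0.18, and on 4 or 5 of the 6 under the other scalings.

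**Figure D3:**
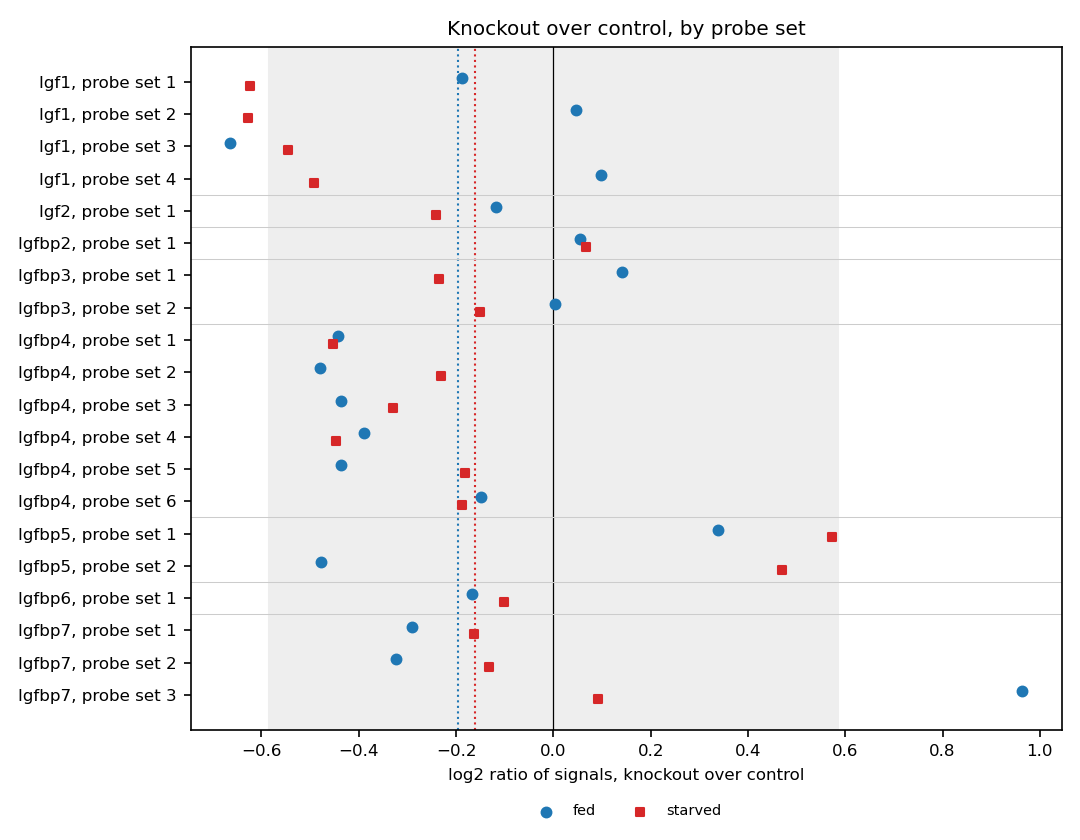
Log2 ratio of signals, knockout over control, for the 20 probe sets past the filter in fed (circles) and starved muscle (squares), with 1.5-fold in grey and the medians of all genes (-0.20 fed, -0.16 starved) dotted. All 6 Igfbp4 probe sets are below 0 in both states (at least 4 of the 6 under the other scalings), and in starved muscle all 4 Igf1 probe sets are below 0 and both Igfbp5 probe sets above it.

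The starvation responses themselves were set side by side as the ratio of the control response over the knockout response. By the leading probe set 0 of the 8 genes were past 1.5-fold in either direction, where 10.4% of all genes were higher and 12.3% lower. The largest value was that of Igf1 at 0.44, and the lowest that of Igfbp5 at -0.23. Of the 20 single probe sets past the filter, 3 were past 1.5-fold higher and 1 lower. The higher ones were 2 of the 4 Igf1 probe sets, 1434413_at at 0.68 and 1419519_at at 0.59, and the dim Igfbp7 one at 0.87. The lower one was the dimmer Igfbp5 probe set at -0.95. The median was 0.00 for the 8 genes and -0.04 for all genes. With the mean over all probe sets past the filter, Igfbp5 reached -0.59, a smaller fall in the knockout, through its dimmer probe set.

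By likeness over the 4 arrays, the genes nearest to each of Igf1, Igf2 and Igfbp5 were looked up among 7418 genes, as the distance between log2 signals centred on each gene's mean. For Igf1 they were Ptgfrn at 0.048, Ndrg4 at 0.057 and Cdc14a at 0.094. Ptgfrn, a membrane protein that partners tetraspanins, read 482, 307, 414 and 201 on the fed control, starved control, fed knockout and starved knockout arrays. Igfbp5 had Dapk2, a calmodulin-regulated kinase, at 0.17, Prkag3, the AMPK subunit of fast muscle fibres, at 0.19 and Aurka, a mitotic kinase, at 0.30. Prkag3 read 2341, 612, 2748 and 846, high in the fed and low in the starved pools of each genotype as Igfbp5 was. For Igf2 they were Rexo4 at 0.017, Pdik1l at 0.022 and Fndc3b at 0.029. With 4 arrays many genes can share a pattern, so these names are a description.

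Downstream of the ligands, the receptors and adaptors through which IGFs act held 6 genes past the filter. Of these, 2 rose in control muscle and 0 fell, beside 9.21% and 14.2% of all genes, and in knockout muscle 0 rose and 1 fell, beside 7.36% and 9.45%. Igf1r, the IGF1 receptor, read 188, 325, 134 and 152 in the order fed control, starved control, fed knockout and starved knockout, a log2 ratio of 0.79 in control and 0.19 in knockout muscle. Irs2, an adaptor of the insulin and IGF1 receptors, read 189, 434, 120 and 136, with 1.20 and 0.18. In both genes the starved control array stood above the other 3. Irs1, the other main adaptor, read 1323, 1492, 834 and 490.4, so that it fell in knockout muscle by 0.77 on the log2 scale. In starved muscle 4 of the 6 genes were past 1.5-fold lower in the knockout, beside 14.5% of all genes, namely Igf1r, Insr, Irs1 and Irs2, or 3 of them, without Insr, under the other scalings, and the 3 Igf1r probe sets gave log2 ratios from -1.15 to -1.08 there. Insr, the insulin receptor, read 540, 756, 463 and 484. Grb10, an inhibitory adaptor, and Igf2r, which clears IGF2, stayed within 1.5-fold in all 4 comparisons by their leading probe sets.

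The growth hormone axis, which governs Igf1 transcription through STAT5, held 8 genes past the filter. In control muscle 0 rose and 1 fell, the dim Socs1, and in knockout muscle 0 rose and 1 fell, Socs3, with the all-gene shares as for the receptors. Ghr, the growth hormone receptor, read 3751, 2960.2, 3197 and 2425, lower in both starved pools with log2 ratios of -0.34 and -0.40, although its second probe set was level in control muscle, at 954 fed and 965.5 starved. Jak2, the kinase it signals through, gave -0.42 and -0.57. Socs2, a feedback inhibitor and STAT5 target, read 531, 766, 522 and 438, higher in starved control but not in starved knockout muscle, with log2 ratios of 0.53 and -0.25, and under 2 of the other scalings it passed 1.5-fold in control muscle. Stat5b read 1145, 1506, 825 and 724. In the starved pools 4 of the 8 genes were past 1.5-fold lower in the knockout, beside 14.5% of all genes, and 1, the dim Socs1, was higher, beside 6.37%. The lower ones were Stat5b, Socs2, Socs3 and Cish, with log2 ratios of -1.06, -0.81, -1.15 and -1.10. The other Socs3 probe sets gave -0.36 and -0.61.

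**Figure D4:**
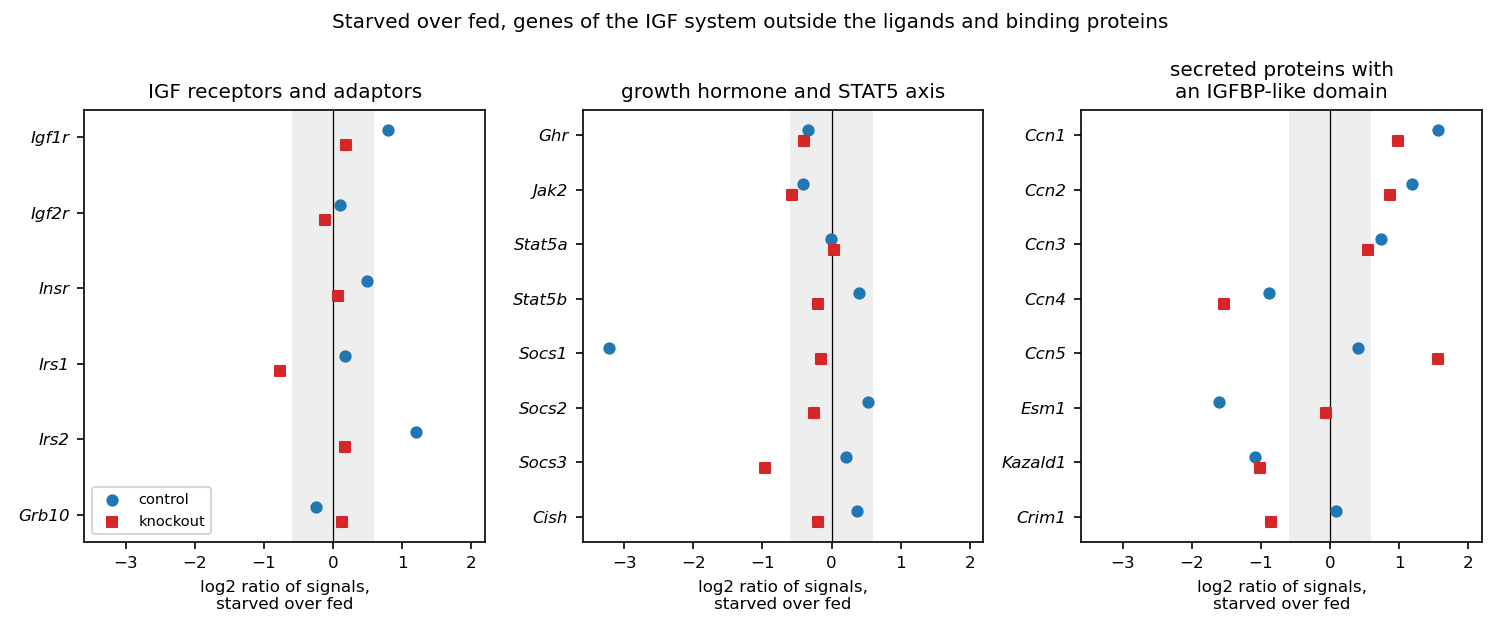
Log2 ratio of signals, starved over fed, in control (circles) and knockout muscle (squares) for genes past the filter in 3 lists, with 1.5-fold in grey. Igf1r and Irs2 pass 1.5-fold in control but not in knockout muscle, while Ccn1 and Ccn2 pass it in both.

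Proteins that release or hold the binding proteins were measured at mostly low signal. Of 9 listed genes 7 passed the filter, and Pappa and Adam12 did not. In each genotype 2 of the 7 rose and 1 fell, beside 9.21% and 14.2% of all genes in control and 7.36% and 9.45% in knockout muscle. Stc2, an inhibitor of the PAPP-A protease, read 36.2, 89.0, 30.3 and 67.6 and rose in both genotypes, by log2 ratios of 1.30 and 1.16, although its 2 other probe sets gave 2.32 and 0.27 in the knockout. Igfals, the acid labile subunit that locks IGF and IGFBP3 into the large complex of the blood, read 53.3, 15.3, 33.2 and 21.8 and fell in both, by 1.80 and 0.61, the latter not past 1.5-fold under the other scalings. Stc1, the related inhibitor, read 27.0, 61.6, 34.6 and 38.2. Htra1, Htra3 and Adam9, proteases that can cut binding proteins, stayed within 1.5-fold on starvation by their leading probe sets, while a dimmer Htra3 probe set read 110.0, 254, 131 and 248.5. Of the other IGF family genes only Igf2bp3, an RNA-binding protein, passed the filter, at 80.4, 93.2, 77.6 and 78.1, while Igfbp1, Igfbpl1 and Igf2bp1 were dim on every array.

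Secreted proteins that share the IGFBP-like domain without being IGF carriers, counted together with the membrane protein Crim1, moved in both directions. Of 8 genes past the filter, 3 rose and 3 fell in each genotype, beside 9.21% and 14.2% of all genes in control and 7.36% and 9.45% in knockout muscle. Under the other scalings 4 rose in the knockout. Ccn1 read 349, 1033, 421 and 830.3 and Ccn2 read 689, 1565, 812 and 1480, matrix-bound growth regulators that rose in both genotypes as Igfbp3 did. Their log2 ratios were 1.57 and 0.98 for Ccn1 and 1.18 and 0.87 for Ccn2, and 2 dimmer Ccn1 probe sets stayed within 1.5-fold. Kazald1 read 125.5, 59.4, 96.9 and 48.2 and fell in both, by 1.08 and 1.01. Crim1, which binds BMPs, fell in knockout muscle by 0.85 and had a log2 ratio of 0.09 in control muscle. Its second probe set gave -0.49 in knockout and 0.58 in control muscle, both within 1.5-fold.

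Markers of other cell types moved alongside these genes on starvation. The summed signal of 11 fibroblast and connective tissue markers, none of them at 0, was 38848 in fed control, 28794 in starved control, 33839.5 in fed knockout and 25739 in starved knockout muscle. All 11 were lower on starvation in each genotype, or 10 of 11 in the knockout under the other scalings. Past the threshold were 4 in control and 5 in knockout muscle, beside 14.2% and 9.45% of all genes. Among them was the collagen gene Col3a1 at 6296, 3378, 5616 and 2615. Under the other scalings 3 or 4 fell in control and 5 in knockout muscle. The 8 tendon markers summed to 10053, 5822, 8483 and 5537, with 6 falling in control and 4 in knockout muscle, beside the same shares. In knockout muscle 1 tendon marker rose, beside 7.36% of all genes. Under the other scalings 5 or 6 tendon markers fell in control and 3 in knockout muscle. Igf1, Igfbp5, Igfbp6 and Igfbp7 went the same way as these lists, and the part of such cells in their ratios was not tested. In starved control muscle 10 of 10 fast fibre, 7 of 7 slow fibre and 10 of 10 smooth muscle markers were also lower as deposited. Their median log2 ratios were -0.08, -0.10 and -0.18, against -0.43 for fibroblast and -0.73 for tendon markers. In knockout muscle 4 of 10, 6 of 7 and 9 of 10 were lower. Under the other scalings 6 to 9 fast and 4 to 6 slow fibre markers were lower in control muscle. Igfbp3 went the opposite way to the fibroblast and tendon lists. The 12 endothelial markers summed to 6159, 5814, 4983 and 4892, all 12 lower in the knockout in fed and in starved muscle as Igfbp4 was, but 10 in fed and 7 or 8 in starved muscle under the other scalings. The 10 macrophage markers summed to 7799, 7068, 6038 and 5299 and were lower in the knockout for 10 of 10 genes in fed and 9 of 10 in starved muscle under every scaling run. The 6 adipocyte markers summed to 18698, 21628, 16202 and 17363, lower in the knockout for 6 of 6 genes in fed and 5 of 6 in starved muscle. Under the other scalings these counts were 5 or 6 in fed and 4 or 5 in starved muscle. In starved muscle 4 were past 1.5-fold lower, beside 14.5% of all genes, or 2 under each of the other scalings. As deposited, 10 of 10 smooth muscle and 11 of 11 fibroblast markers were also lower in the fed knockout, and 9 of 10 and 9 of 11 in the starved knockout, counts that came to 5 to 7 of 10 and 6 to 9 of 11 under the other scalings. The part of these cells in the Igfbp4 and Igf1 values was not tested. The 7 satellite cell markers summed to 948, 804, 915 and 875.

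**Figure D5:**
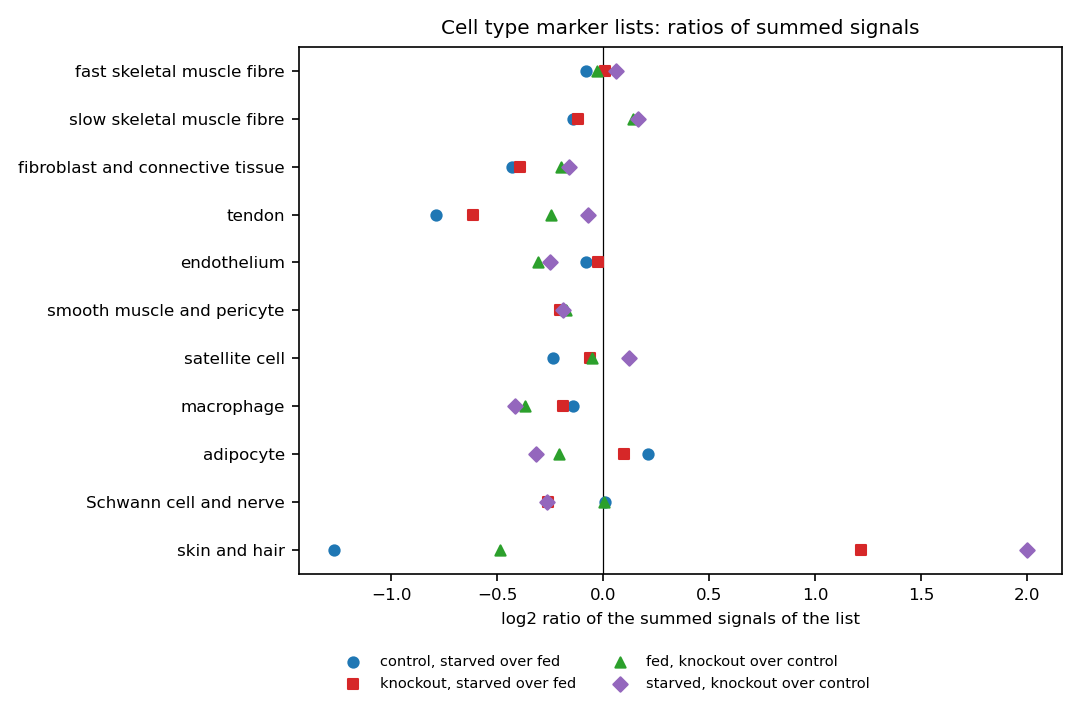
Log2 ratio of the summed signals of 11 cell type marker lists, for starved over fed in control (circles) and knockout muscle (squares) and for knockout over control in fed (triangles) and starved muscle (diamonds). Fibroblast and tendon markers are lower on starvation in both genotypes, endothelial and macrophage markers are lower in the knockout in the signals as deposited, and fast fibre markers stay near 0, while the skin and hair list spans from 514 on the starved control to 2058 on the starved knockout array.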

How the data were processed

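Expression was measured in gastrocnemius muscle on 4 Affymetrix whole-genome mouse arrays, each with pooled RNA of 6 muscles from 3 mice. Deposited values are linear signal intensities that the authors summarized with MAS 5.0, for which Affymetrix Expression Console is listed in the submitters' processing notes. Neither the scaling target nor detection calls were at hand, and precision is limited by having 4 arrays.

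Ratios were computed from the deposited signals without further scaling, using Python 3.11.15, numpy 2.4.6, pandas 2.3.3 and, for figures, matplotlib 3.10.9. A signal of 0 was set to 0.1. Probe sets below the 50th percentile on all 4 arrays were left out. The platform annotation gives 1 gene for 34945 probe sets, several for 932 and none for 9160, and symbols were updated through RefSeq for 34741. A gene took the values of its brightest kept probe set, and a ratio of 1.5-fold was called. Calling was tested on simulated data holding 200 changed genes. Named genes were all members and their probe sets, the FoxO genes, up to 4 genes per pathway list by response in control muscle and up to 4 by genotype difference in response, and the 3 nearest genes of Igf1, Igf2 and the binding protein of widest range. Other pathway and marker genes in the text were chosen after their values were seen. The members, the 5 pathway lists and the 11 marker lists were chosen with earlier results of these data known. Alternatives were 3 array scalings (trimmed mean without the outer 2%, median, quantile), 3 choices of probe set, an offset of 32, no filter or one at the 75th percentile, and a 2-fold threshold.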

Additional observations from a re-analysis of the deposited data

Results flagged for a closer look

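Log2 ratios by leading probe sets were compared between control and knockout muscle and between fed and starved muscle. None of the 8 IGF ligand and binding protein genes had opposite signs with 1 of the ratios past 1.5-fold. The Igf1 probe set 1434413_at, not the leading one, did, with knockout over control at 0.05 in fed and -0.63 in starved muscle. Genes of the surrounding pathway lists did by their leading probe sets. In each the difference rests on single arrays and was not tested. On starvation Irs1 had a log2 ratio of 0.17 in control and -0.77 in knockout muscle, Crim1 0.090 and -0.85, Socs3 0.21 and -0.96, and Pappa2 -0.084 and 1.06. The second Crim1 probe set also had opposite signs, at 0.58 and -0.49, but neither ratio was past 1.5-fold. For knockout over control, Socs3 had 0.029 in fed and -1.15 in starved muscle and Stc1 0.36 and -0.69. Esm1 had -1.10 in fed and 0.44 in starved muscle, Igfals -0.68 and 0.51, Pappa2 -0.54 and 0.61, and Socs1 -1.25 and 1.82. Pappa2, Esm1, Socs1, Igfals and Stc1 were dim, and Socs1 was at a signal of 3.2 on the starved control array. The opposite signs of Socs3 rest on 1 of its 3 probe sets between genotypes, since the other probe sets were lower in the knockout in both states, at -0.15 and -0.36 and at -0.45 and -0.61. On starvation the first of these was lower in both genotypes, at -0.41 in control and -0.61 in knockout muscle.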

How the results depend on the processing

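No array could be left out, since each is a whole condition. No paired analysis was possible because each group has 1 array, so that no replicate numbers could link samples across groups. Of 355 values of single genes recomputed under the alternatives, 312 moved by less than the scatter between probe sets of a gene, 43 moved by more, and 0 changed sign while past the threshold. Many of the 312 could not move. With no filter or the one at the 75th percentile, each measured gene kept its leading probe set and its values. Choosing the highest fed signal or leaving out shared probes did likewise. Shared probes were recognized by probe set names ending in _a_at, _s_at or _x_at. All probe sets of Igfbp2, Igfbp4 and Igfbp5 have such names and were kept, so this setting could not check the fall of Igfbp5. In starved muscle the count of genes past 1.5-fold between genotypes was 1, and it was 0 with the mean over probe sets, with the offset of 32 and at the 2-fold threshold. It stayed at 1 under the 3 scalings, where Igfbp5 took the place of Igf1. For the starvation responses set against each other the count was 0, and it was 1, Igfbp5, with the mean over probe sets. In control muscle the count of 3 became 2, without Igf1, under the 3 scalings, the offset and the 2-fold threshold. In knockout muscle it was between 2 and 4. The mean over probe sets brought in Igfbp7 through its dim probe set, with log2 ratios of -0.87 in control and -1.05 in knockout muscle. In control muscle it also took out Igf1, at -0.41, so that the count stayed at 3. The cause of these changes beyond the settings themselves was not tested. At the 75th percentile Igfbp2 was not measured. Dim probe sets limit Igfbp2 and the second Igf2 probe set.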
